A study of Mus musculus with 7 samples.

Results

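Malat1 and Neat1 are long noncoding RNAs transcribed from neighbouring genes on mouse chromosome 19, and both stay in the nucleus. Their precipitated RNA was followed here through 10 of the 303889 intervals, called features, in which reads were counted. A feature was taken where it overlapped the GENCODE M21 span of either gene in mm10 on the gene's own strand. Malat1 (ENSMUSG00000092341.3, a lincRNA, chr19:5795690-5802672, minus strand) held 2 features covering 2047 of its 6983 bases, or 29.3%. Neat1 (ENSMUSG00000092274.3, a lincRNA, chr19:5824708-5845478, minus strand) held 8 features covering 5767 of its 20771 bases, or 27.8%. All 10 lay wholly inside the spans and in the exon of the longest annotated transcript, which for both genes is unspliced. They are numbered s1, s2 and so on from the 5′ end, and 7 of the 10 had enough counts to be tested.

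An antibody raised against EZH2, the subunit of Polycomb repressive complex 2 (PRC2) that methylates histones, was used to pull down RNA for sequencing (RIP-seq). According to the series title the same antibody binds SAFB as well, a protein that itself binds RNA in the nucleus. The 7 libraries came from male CAST/B6 mouse embryonic stem cells with a recombination cassette at Rosa26, all given doxycycline for 3 days. SAFB DKO lacked both Safb and its paralog Safb2 (n = 2, clones 13 and 4), EZH2 KO lacked Ezh2 (n = 2, clones 12 and 19), and WT was the parental line with clones 20 and 44 (n = 3). The labels do not say what doxycycline induced, and each library is 1 clone or the parent, so p-values measure the spread between clones. Levels are CPM, counts scaled to the normalised size of their library.

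Total counts were 15812517 to 18738499 in SAFB DKO, 7050832 to 8353603 in EZH2 KO and 19024702 to 21832539 in WT. The targeted genes were low in the matching genotype: Safb averaged 1.00 ± 0.58 CPM in SAFB DKO against 200.2 ± 71.9 in WT, Safb2 1.86 ± 1.49 against 239 ± 99.2, and Ezh2 1.21 ± 1.48 in EZH2 KO against 179.9 ± 19.2 in WT. Of 10 embryonic stem cell markers 9 had counts in features assigned to that gene alone. Their summed level was 2033 to 2140 CPM in SAFB DKO, 1253 to 1438 in EZH2 KO and 1478 to 1551 in WT. Of 20 markers of other cell types 8 had no feature assigned to that gene alone. The rest summed to 107 to 111, 92.5 to 99.5 and 115 to 128 CPM in the same order of groups. Single embryonic stem cell markers changed both ways at an adjusted p under 0.05, which the sums do not show. Of the 9, 6 rose and 1 fell in SAFB DKO from WT, beside 15.5% and 34.7% of all tested genes. In EZH2 KO 3 rose and 5 fell, beside 25.3% and 22.6%. The part of these marker differences in the results below was not tested. Precipitates cannot tell less RNA in the cell from less of it brought down. The EZH2 KO columns carry names of another pattern than the others. Any effect of a separate run cannot be told apart from the genotype.

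Malat1 is among the most abundant long RNAs of mammalian nuclei and collects in nuclear speckles, bodies rich in splicing factors. Neat1 gives a short and a long transcript from 1 promoter. The long one is the scaffold on which paraspeckles form, around proteins such as NONO and SFPQ, and in human embryonic stem cells paraspeckles are largely missing until differentiation. SAFB proteins bind nuclear RNA, and purine-rich stretches with the letters GAAGA have been described at their binding sites.

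The sequences that set the features apart are given first, from the GENCODE M21 transcripts on mm10, 5′ to 3′ on the transcript strand, with every GAAGA in capitals. The first is the 300-base window of Malat1 s1 with the most of these motifs (chr19:5801713-5802012, transcript bases 661 to 960). The second is all of Malat1 s2, the other Malat1 feature (chr19:5796333-5796525). The third is the window chosen in the same way from Neat1 s1 (chr19:5844010-5844309, transcript bases 1170 to 1469).
Malat1 s1: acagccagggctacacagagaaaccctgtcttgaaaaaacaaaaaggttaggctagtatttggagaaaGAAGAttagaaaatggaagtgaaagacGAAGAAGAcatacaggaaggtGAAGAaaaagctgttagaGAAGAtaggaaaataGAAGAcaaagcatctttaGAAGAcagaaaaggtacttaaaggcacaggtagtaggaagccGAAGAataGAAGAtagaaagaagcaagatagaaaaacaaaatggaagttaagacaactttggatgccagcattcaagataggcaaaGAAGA
Malat1 s2: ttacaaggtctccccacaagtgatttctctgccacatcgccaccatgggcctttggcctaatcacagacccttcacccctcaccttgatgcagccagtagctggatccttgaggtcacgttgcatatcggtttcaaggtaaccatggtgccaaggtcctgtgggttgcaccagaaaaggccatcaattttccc
Neat1 s1: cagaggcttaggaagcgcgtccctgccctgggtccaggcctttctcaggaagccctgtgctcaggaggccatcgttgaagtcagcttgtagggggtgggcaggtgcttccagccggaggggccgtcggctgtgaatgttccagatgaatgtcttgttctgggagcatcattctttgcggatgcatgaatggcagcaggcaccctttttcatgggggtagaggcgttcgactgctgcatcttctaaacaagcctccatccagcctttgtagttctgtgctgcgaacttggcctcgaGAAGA

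The Malat1 window held 10 GAAGA and was 73.7% purine (A or G). The Neat1 window held 1 and was 49.7% purine, and Malat1 s2 held none and was 43.5% purine. Over whole features, with overlapping matches counted and only the transcript strand searched, Malat1 s1 held 19 GAAGA in 1854 bases, or 10.2 per kb, and was 61.7% purine. The rest of the Malat1 transcript held 6 in 5129 bases, or 1.17 per kb. Neat1 s1 held 4 in 2985 bases, or 1.34 per kb, and the rest of Neat1 held 15 in 17786 bases, or 0.84 per kb. Among 3867 features of at least 1000 bases inside annotated exons, 92.8% held the motif, the median was 1.90 per kb, and 0.595% reached the density of Malat1 s1 while 67.6% reached that of Neat1 s1. Among 15213 such features of at least 200 bases 2.11% reached the density of Malat1 s1. Among 271 exonic features of at least 200 bases in the authors' short list of peaks, which Malat1 s1 belongs to, the median was 2.74 per kb and 3.69% reached it. A match of letters is a description and not a binding site.

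Precipitated RNA of the 5′ feature of Malat1 was far lower in SAFB DKO than in WT. Both Malat1 features cover only 29.3% of the transcript, and none lies between bases 1996 and 6148. How far the loss reaches along the transcript is therefore not known. Malat1 s1 (chr19:5800677-5802530, transcript bases 143 to 1996) had 2250 and 2304 CPM in SAFB DKO, 37303 and 66761 in EZH2 KO, and 31763, 31023 and 24359 in WT. The 3 groups did not overlap: SAFB DKO lay lowest and EZH2 KO highest, with the EZH2 KO clones far from each other. In SAFB DKO the feature fell by 3.67 on the log2 scale from WT (SE 0.19, adjusted p = 3.69e-09), a level 12.8-fold lower. In EZH2 KO it rose by 0.84 (SE 0.16, adjusted p = 0.00177), or 1.79-fold. That rise depended on clone 19: it was 0.30 without it and 1.14 without clone 12, past the threshold both ways. The log2 change of Malat1 s1 in SAFB DKO from EZH2 KO was -4.51 (SE 0.20, adjusted p = 1.96e-10).

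The other Malat1 feature did not follow s1. Malat1 s2, 193 bases near the 3′ end (transcript bases 6148 to 6340), had 307 and 310 CPM in SAFB DKO, 229 and 228 in EZH2 KO, and 246, 235 and 215 in WT. The SAFB DKO libraries lay above all others, and the EZH2 KO libraries lay inside the range of WT. The log2 change from WT was 0.41 in SAFB DKO (SE 0.13, adjusted p = 0.0286) and -0.02 in EZH2 KO (SE 0.13, adjusted p = 0.937). The first of these calls was a weak one: without clone 13, clone 4, the parental line, clone 20 or clone 44 the adjusted p ran from 0.0848 to 0.154, with log2 changes of 0.34 to 0.45. SAFB DKO was above EZH2 KO by 0.43 (SE 0.14, adjusted p = 0.0218). This call too was lost without clone 4, the parental line or clone 20 (adjusted p = 0.0512 to 0.0608), in a fit of only these groups (adjusted p = 0.0688) and with the replicate number as a block (adjusted p = 0.097).

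**Figure D1:**
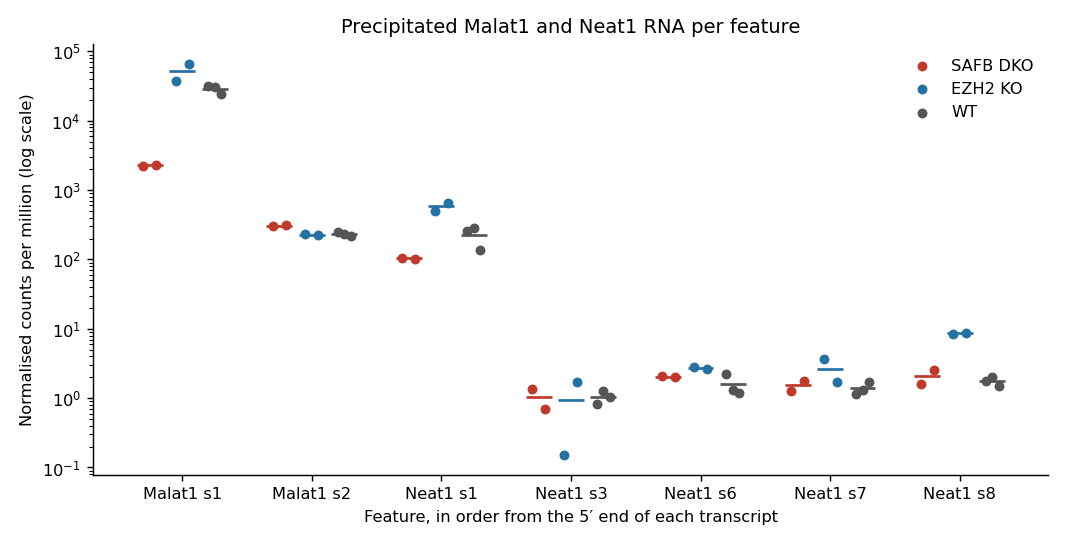
CPM (log axis) of the 7 tested features in each library; points are libraries and short lines are group means, with SAFB DKO (n = 2), EZH2 KO (n = 2) and WT (n = 3) from left to right. Malat1 s1 sits at 2250 and 2304 in SAFB DKO against 24359 or more in WT, while Malat1 s2 stays between 215 and 310 in every library.

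The ratio of both Malat1 features within a library does not depend on library size. Both lie in the long transcript, but short annotated transcripts also overlap s1 (ENSMUST00000173499.1) and span s2 (ENSMUST00000173314.1 and ENSMUST00000174808.1), so their reads need not come from the same molecules. Malat1 s1 had 7.33 and 7.43 counts for each count in s2 in SAFB DKO, 163 and 293 in EZH2 KO, and 129, 132 and 113 in WT. The SAFB DKO ratios averaged 16.9-fold below WT, and the EZH2 KO ratios 1.82-fold above it. Neither comparison overlapped, and each reached the smallest p that 2 against 3 libraries allow (two-sided exact permutation test, p = 0.1). Per kb of feature, s1 had 1228 ± 20.5 CPM and s2 1599 ± 12.2 in SAFB DKO, 28065 ± 11235 and 1184 ± 5.66 in EZH2 KO, and 15668 ± 2200 and 1201 ± 81.8 in WT. The level of s1 per kb was thus above s2 in EZH2 KO and WT libraries, and below it in the SAFB DKO libraries.

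Malat1 s1 took a large part of the sequencing. By raw counts it ranked 10th of all features in both SAFB DKO libraries, second and first in EZH2 KO, and second in each WT library. Both Malat1 features together held 0.299% and 0.307% of all counts in SAFB DKO, 3.54% and 5.10% in EZH2 KO, and 3.19%, 3.16% and 2.47% in WT. Counting error was small, with a 95% Clopper-Pearson interval of 0.297% to 0.302% for the lowest of these shares; such intervals cover counting error only. The share did not overlap between groups (exact permutation test, p = 0.1 for each knockout against WT, the smallest possible).

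Malat1 s1 was the only one of the 10 features in the authors' filtered list of 33671 peaks and in their short list of 10043. The short-list peaks changed by a median log2 of -3.24 in SAFB DKO (quartiles -3.93 and -2.63) against -0.20 over all 193862 tested features. In EZH2 KO the medians were 0.89 (quartiles 0.35 and 1.31) for the short list and -0.19 for all features. Malat1 s1 lay inside the quartiles both times, with 32.8% of short-list peaks below it in SAFB DKO and 47.0% in EZH2 KO. By their names the peaks were called on WT libraries, so a fall from WT in them is not independent evidence. How the lists were then chosen was not examined, so the place of Malat1 s1 among their peaks is only a description.

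Neat1 moved in the same directions as Malat1 at its 5′ end, by a smaller amount in SAFB DKO. Neat1 s1 (chr19:5842333-5845317, transcript bases 162 to 3146) lies in the region of the annotated short transcript ENSMUST00000174287.1, which the long transcript shares. It had 104 and 102 CPM in SAFB DKO, 507 and 658 in EZH2 KO, and 254, 286 and 135 in WT. The groups did not overlap, and WT clone 44 lay closest to the SAFB DKO libraries. From WT the feature fell by 1.12 on the log2 scale in SAFB DKO (SE 0.23, adjusted p = 0.0019), or 2.18-fold, and rose by 1.37 in EZH2 KO (SE 0.22, adjusted p = 0.00061), or 2.59-fold. The log2 change of SAFB DKO from EZH2 KO was -2.49 (SE 0.26, adjusted p = 8.35e-07). The feature also covers the small annotated RNAs Gm27533, Gm27505 and Gm28006, whose reads cannot be separated from those of Neat1.

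The features downstream of s1 hold few counts and lie in the part of Neat1 that the long transcript covers; ENSMUST00000232969.1, a spliced transcript of bases 17467 to 20164, also reaches s6 to s8. All 7 together had 152 and 135 counts in SAFB DKO, 100 and 99 in EZH2 KO, and 156, 161 and 121 in WT. Scaled to library size these were 6.93 and 7.26 CPM in SAFB DKO, 15.0 and 15.6 in EZH2 KO, and 7.17, 7.58 and 6.32 in WT. SAFB DKO thus lay inside the range of WT, while both EZH2 KO libraries lay above it. As a sum, they changed by a log2 of 0.01 in SAFB DKO (adjusted p = 0.96) and 1.12 in EZH2 KO (adjusted p = 0.0012).

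Neat1 s8 (chr19:5824836-5825616, transcript bases 19863 to 20643), at the 3′ end, was the only tested downstream feature that passed the test in EZH2 KO. It had 1.60 and 2.53 CPM in SAFB DKO, 8.42 and 8.81 in EZH2 KO, and 1.75, 2.02 and 1.51 in WT. Both EZH2 KO libraries stood above every other, while SAFB DKO overlapped WT. The log2 change from WT was 2.28 in EZH2 KO (SE 0.36, adjusted p = 5.7e-04), a 4.87-fold rise, and 0.22 in SAFB DKO (SE 0.37, adjusted p = 0.773). The feature held 23.0% and 34.8% of the downstream counts in SAFB DKO, 56.0% and 56.6% in EZH2 KO, and 24.4%, 26.7% and 24.0% in WT. That share was higher in both EZH2 KO libraries than in any WT library (exact permutation test, p = 0.1, the smallest possible), from 56 counts of s8 in each EZH2 KO library. It comes from the counts already tested, so it is not separate evidence. Its total also includes the sparse features s2, s4 and s5, whose low counts in a knockout raise the share of s8. Shares of 1 total move together: mean shares in EZH2 KO and WT were 1.52% and 6.89% for s2, 6.06% and 14.9% for s3, and 0.51% and 4.66% for s4. These 3 did not overlap either (exact permutation test, p = 0.1 each). By their names the intervals were called on WT libraries, and s2 and s4 had at most 3 counts in an EZH2 KO library. Lower shares of such sparse features in EZH2 KO are thus not independent evidence.

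Neat1 s3 (431 bases), s6 (537 bases) and s7 (629 bases) did not pass the test in either knockout. The log2 changes from WT were -0.01 (SE 0.68), 0.37 (SE 0.44) and 0.13 (SE 0.49) in SAFB DKO, and -0.17 (SE 0.79), 0.81 (SE 0.48) and 0.94 (SE 0.51) in EZH2 KO. With 1 to 48 counts per library, changes of the size seen in s1 were not detectable in them with any certainty. Neat1 s2, s4 and s5 were too low to be tested. Over each group, s2 had 8 counts in SAFB DKO, 3 in EZH2 KO and 30 in WT, and s4 had 10, 1 and 21 in the same order. Neat1 s5 had no count in SAFB DKO or EZH2 KO and 27 in WT. Against a floor of 3 counts over the group, its level was at least 5.86-fold lower in SAFB DKO and at least 1.88-fold lower in EZH2 KO than in WT. By their names the intervals were called on WT libraries, so a lower level of such sparse features in a knockout is not independent evidence.

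**Figure D2:**
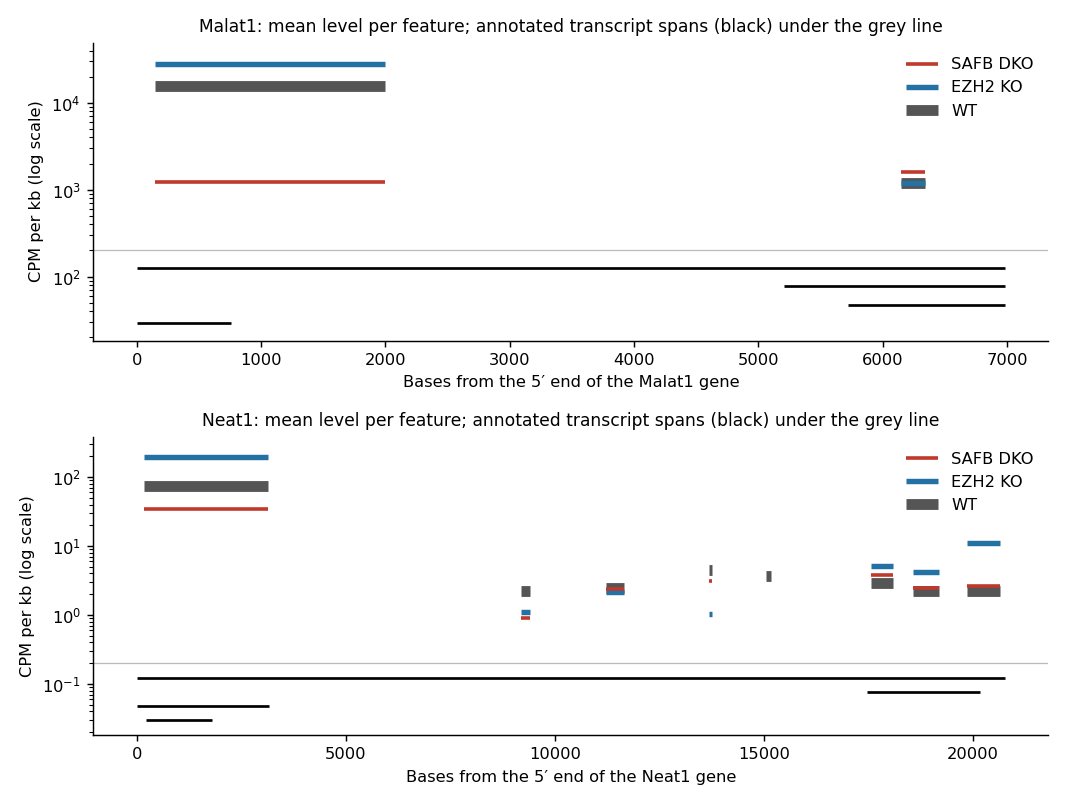
Mean CPM per kb of each feature (log axis) against distance in bases from the 5′ end of Malat1 (upper panel) and Neat1 (lower panel); coloured bars span the features in SAFB DKO (thin, red), EZH2 KO (blue) and WT (wide, grey), a group at 0 has no bar, and black lines are annotated transcript spans without a scale. The level of the 5′ feature of Malat1 is 1228 per kb in SAFB DKO against 15668 in WT, and the last Neat1 feature stands out in EZH2 KO against 2.26 per kb in WT.

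Counted over the 7 tested features, 1 rose and 2 fell in SAFB DKO, beside 2.25% of all tested features that rose and 17.5% that fell. In EZH2 KO 3 rose and none fell, beside 7.47% and 8% of all tested features. The risers were Malat1 s1, Neat1 s1 and Neat1 s8, and at an unadjusted p under 0.05 none of the 7 fell either. In SAFB DKO against EZH2 KO 1 rose and 3 fell, beside 16.5% and 23.5%. The 2 features that fell in SAFB DKO were the 5′ features of both genes, and both of them rose in EZH2 KO.

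**Figure D3:**
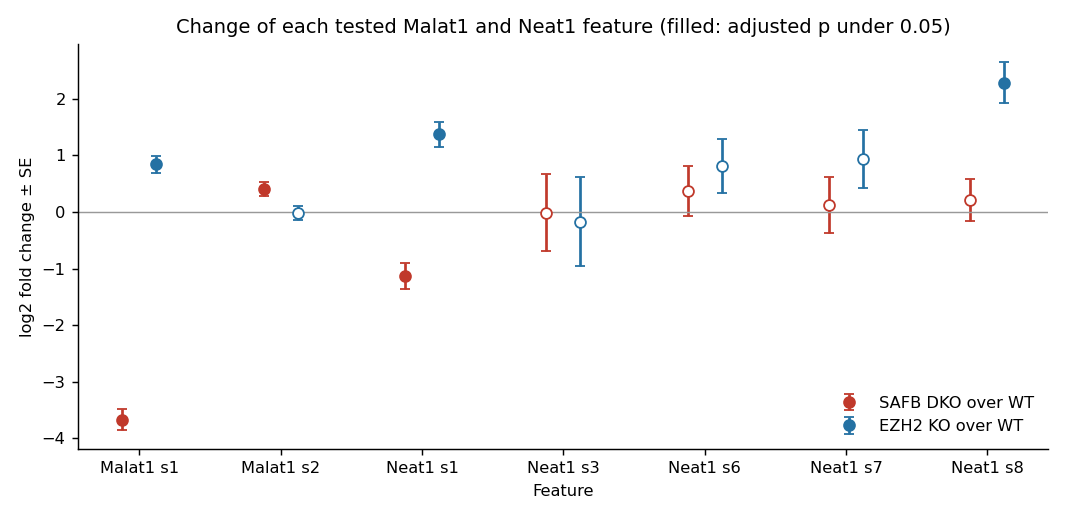
Log2 fold change over WT with its SE (error bars) for the 7 tested features in SAFB DKO (red, left) and EZH2 KO (blue, right); filled points have an adjusted p under 0.05 in edgeR's quasi-likelihood test. The 5′ features lie below 0 in SAFB DKO (-3.67 and -1.12) and above 0 in EZH2 KO (0.84 and 1.37), and Neat1 s8 is at 2.28 in EZH2 KO.

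The 5′ feature of Neat1 had 15.1 and 14.1 counts per count in the downstream features in SAFB DKO, 33.7 and 42.3 in EZH2 KO, and 35.4, 37.8 and 21.4 in WT. Both SAFB DKO libraries lay below all others, and EZH2 KO overlapped WT. The SAFB DKO mean was 2.16-fold below WT (two-sided exact permutation test, p = 0.2, where 0.1 is the smallest possible). The imbalance had the same direction as in Malat1, where the ratio was 16.9-fold below WT.

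**Figure D4:**
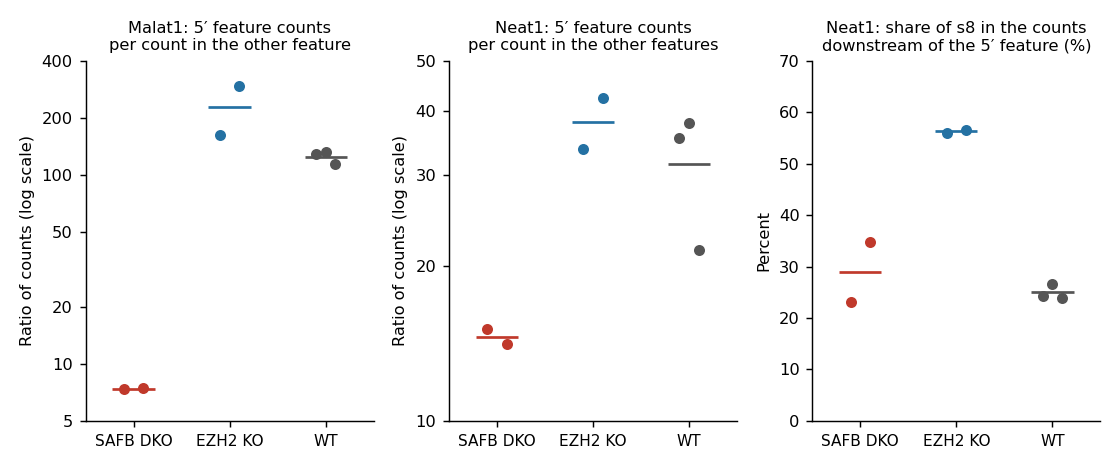
Counts of the 5′ feature per count in the remaining features of Malat1 (left, log axis) and Neat1 (middle, log axis), and the share of Neat1 s8 in the downstream Neat1 counts (right, percent), by library, with SAFB DKO, EZH2 KO and WT from left to right; lines are group means. The Malat1 ratio is 7.33 and 7.43 in SAFB DKO and 113 or more in every other library, and the s8 share is above 50% only in EZH2 KO.

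As whole genes, with features summed, Malat1 averaged 2585 ± 40.3 CPM in SAFB DKO, 52261 ± 20829 in EZH2 KO and 29280 ± 4093 in WT (SD). It fell by 3.50 on the log2 scale in SAFB DKO (SE 0.23, adjusted p = 2.22e-07), beside 34.7% of the 16773 tested genes that fell. In EZH2 KO it rose by 0.84 (SE 0.19, adjusted p = 0.00315), beside 25.3% of genes that rose. Without clone 19 the rise was 0.29 and no longer called (adjusted p = 0.0757). Since s1 held 88.0% or more of the gene's counts in every library, the value of the gene is that of s1. Leaving s1 out turned the SAFB DKO change to 0.41 (adjusted p = 0.0107) and the EZH2 KO change to -0.02 (adjusted p = 0.902).

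Neat1 averaged 110.5 ± 1.19 CPM in SAFB DKO, 598 ± 107 in EZH2 KO and 232 ± 80.2 in WT. It fell by 1.07 in SAFB DKO (SE 0.24, adjusted p = 0.00255), and in EZH2 KO it rose by 1.36 (SE 0.23, adjusted p = 4.2e-04). Without s1 the fall in SAFB DKO was gone, as given above for the downstream features, and the rise in EZH2 KO was kept. In EZH2 KO s8 alone held 56.0% and 56.6% of the counts left, and no other downstream feature was called there. Neat1 held 0.0130% and 0.0129% of all counts in SAFB DKO, 0.0493% and 0.0513% in EZH2 KO, and 0.0260%, 0.0297% and 0.0143% in WT. The share did not overlap between groups, but with WT clone 44 near SAFB DKO the test of that difference gave p = 0.2 (exact permutation test).

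The difference between the genes was followed as the ratio of their counts. Malat1 had 23.0 and 23.8 counts per Neat1 count in SAFB DKO, 71.9 and 99.5 in EZH2 KO, and 123, 106 and 174 in WT. SAFB DKO was lowest, and EZH2 KO lay between it and WT. The log2 ratio differed from that of WT by -2.49 in SAFB DKO (exact permutation test, p = 0.1, the smallest possible) and by -0.63 in EZH2 KO (exact permutation test, p = 0.2). Without the 5′ features it differed from WT by 0.40 in SAFB DKO and by -1.15 in EZH2 KO.

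Reads on the opposite strand were few beside the sense reads of the same gene. For each 100 sense counts Malat1 had 2.73 and 1.40 opposite-strand counts in SAFB DKO, 1.36 and 1.46 in EZH2 KO, and 1.66, 1.57 and 1.12 in WT, and Neat1 had 0.958 to 2.99 over the 7 libraries. The largest opposite-strand feature in Malat1 (chr19:5800993-5802654, plus strand, overlapping the annotated Gm37376) faces s1. It averaged 421 ± 136 CPM in WT, above the 225 ± 79.6 of Neat1 s1, and is in the authors' filtered list and short list. Its log2 change was -3.20 in SAFB DKO (SE 0.32, adjusted p = 1.43e-06) and 0.79 in EZH2 KO (SE 0.28, adjusted p = 0.0631), near those of s1. Whether its counts are RNA of that strand or sense reads assigned to it was not tested.

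Around the locus the nearest features showed no common direction. On the minus strand, the feature in Frmd8 nearest to Neat1, 5803 bases away, had 15.8 and 18.4 CPM in SAFB DKO, 10.7 and 12.7 in EZH2 KO, and 11.9 in each WT library, with log2 changes of 0.52 (adjusted p = 0.107) and -0.02 (adjusted p = 0.96). On the plus strand, facing it, the feature chr19:5851442-5853271, which overlaps no annotated gene on its strand, fell by 2.68 in SAFB DKO (SE 0.53, adjusted p = 0.00136), and in EZH2 KO it rose by 1.39 (SE 0.42, adjusted p = 0.0351). It had 0.50 and 0.22 CPM in SAFB DKO, 5.11 and 7.39 in EZH2 KO, and 2.99, 1.69 and 2.45 in WT. The 3 features nearest to Malat1 were on the plus strand with at most 20 counts in a library, and the tested one did not pass.

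Of 15 genes along the locus 13 were tested. In SAFB DKO 2 rose and 3 fell, beside 15.5% and 34.7% of all genes, with a median log2 change of 0.19 against -0.23 over all genes. The number of these that rose depended on the scaling: TMM factors from all features gave 4, column totals gave 5 and DESeq2 size factors gave 6, while 3 fell each time. In the same order 3363 of 16794, 4578 of 16762 and 4637 of 16817 tested genes rose, against 2597 of 16773 in the main fit. In EZH2 KO 2 rose and 1 fell, beside 25.3% and 22.6% of all genes, with medians of -0.04 and 0.03. With TMM factors from all features or column totals 3 fell, beside 4592 of 16794 and 5417 of 16762 tested genes. Tigd3, named for its relation to transposases, averaged 6.76 ± 0.40 CPM in SAFB DKO, 37.2 ± 0.34 in EZH2 KO and 13.8 ± 2.18 in WT. It fell by 1.03 in SAFB DKO (SE 0.20, adjusted p = 8.81e-04), and in EZH2 KO it rose by 1.43 (SE 0.19, adjusted p = 7.83e-05). Ehbp1l1 fell by 0.99 in SAFB DKO (SE 0.27, adjusted p = 0.00816). Among genes named after their values were seen, Map3k11, a kinase of stress signalling, fell in SAFB DKO and rose in EZH2 KO (log2 -0.73 and 0.81), and Dpf2, a subunit of BAF chromatin remodellers, did the reverse (0.52 and -0.95). Pola2 and Pcnx3, the locus genes with the highest levels, changed by 0.19 and 0.27 in SAFB DKO and were not called.

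Precipitated mRNAs of paraspeckle proteins were examined beside Neat1. Of 30 such genes 28 were tested. In SAFB DKO 10 rose and 2 fell, beside 15.5% and 34.7% of all genes, with a median log2 change of 0.23 against -0.23 over all genes. In EZH2 KO 3 rose and 14 fell, beside 25.3% and 22.6% of all genes, with medians of -0.40 and 0.03. Nono, for a core protein of paraspeckles, averaged 129 ± 5.95 CPM in SAFB DKO, 57.3 ± 3.39 in EZH2 KO and 81.7 ± 1.00 in WT. It rose by 0.66 in SAFB DKO (SE 0.12, adjusted p = 6.48e-04) and fell by 0.51 in EZH2 KO (SE 0.13, adjusted p = 0.00599). Sfpq, its partner, fell by 0.90 in EZH2 KO (adjusted p = 5.19e-04) and changed by 0.15 in SAFB DKO (adjusted p = 0.414). Smarca4, an ATPase of chromatin remodelling, fell by 0.70 in EZH2 KO (adjusted p = 4.98e-04) and changed by 0.07 in SAFB DKO (adjusted p = 0.656).

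Rbmx, for a nuclear RNA-binding protein of splicing, had the largest called change of that list in SAFB DKO. It averaged 10.8 ± 1.86 CPM in SAFB DKO, 95.8 ± 23.2 in EZH2 KO and 53.7 ± 2.71 in WT. It fell by 2.31 in SAFB DKO (SE 0.19, adjusted p = 8.89e-07), and in EZH2 KO it rose by 0.83 (SE 0.17, adjusted p = 0.00137). The other gene that fell in SAFB DKO was Srsf10 (log2 -0.42), and the other risers in EZH2 KO were Nudt21 (0.67) and Zc3h6 (1.11), all 3 named after their values were seen. The number of paraspeckle genes that rose in SAFB DKO depended on the scaling: column totals gave 22, and DESeq2 size factors gave 21. Of all tested genes 4578 of 16762 and 4637 of 16817 rose with these scalings, against 2597 of 16773 in the main fit.

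All 30 genes of nuclear speckle proteins were tested. In SAFB DKO 7 rose and 12 fell, beside 15.5% and 34.7% of all genes, with a median log2 change of -0.02 against -0.23 over all genes. In EZH2 KO 4 rose and 14 fell, beside 25.3% and 22.6% of all genes, with medians of -0.36 and 0.03. Srrm2, for a scaffold protein of speckles, averaged 2018 ± 105 CPM in SAFB DKO, 5718 ± 31.9 in EZH2 KO and 3959 ± 167 in WT, and fell by 0.97 in SAFB DKO (SE 0.11, adjusted p = 1.41e-05) while it rose by 0.53 in EZH2 KO (SE 0.11, adjusted p = 0.00158). Acin1, for a protein of splicing complexes, fell by 0.86 (SE 0.12, adjusted p = 5.92e-05) and rose by 0.49 (SE 0.11, adjusted p = 0.00365) in the same comparisons. Pnisr fell by 1.66 (SE 0.18, adjusted p = 6.18e-06) and rose by 0.99 (SE 0.16, adjusted p = 3.51e-04). Pnn, for a protein that joins speckles and cell junctions, fell by 1.41 in SAFB DKO (adjusted p = 4.01e-06), whereas its log2 change was -0.02 in EZH2 KO (adjusted p = 0.90). With DESeq2 size factors 13 genes of the list rose and 7 fell in SAFB DKO, and with column totals 2 rose in EZH2 KO. Of all tested genes 4637 of 16817 rose and 4908 fell in the first case, and 3115 of 16762 rose in the second.

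Of 24 other long noncoding RNAs of the nucleus 21 were tested. In SAFB DKO 2 rose and 13 fell, beside 15.5% and 34.7% of all genes, with a median log2 change of -0.68 against -0.23 over all genes. In EZH2 KO 6 rose and 5 fell, beside 25.3% and 22.6% of all genes, with medians of 0.07 and 0.03. With column totals as the scaling 10 fell, beside 5417 of 16762 tested genes. Airn, which silences imprinted genes in cis, averaged 23.3 ± 1.80 CPM in SAFB DKO, 1079.7 ± 62.5 in EZH2 KO and 268 ± 40.4 in WT. It fell by 3.52 in SAFB DKO (SE 0.17, adjusted p = 1.07e-07), close to the -3.50 of Malat1, and rose by 2.01 in EZH2 KO (SE 0.14, adjusted p = 3.45e-06). Tsix, the antisense partner of Xist, fell by 3.64 in SAFB DKO (SE 0.33, adjusted p = 1.65e-06). Xist, the RNA of X inactivation, averaged 2375 ± 520.1 CPM in SAFB DKO, 6127 ± 1937 in EZH2 KO and 4925 ± 518 in WT, and fell by 1.05 in SAFB DKO (adjusted p = 5.29e-04). Pvt1 fell by 0.49 in SAFB DKO (SE 0.13, adjusted p = 0.00645), and in EZH2 KO it rose by 0.67 (SE 0.13, adjusted p = 8.28e-04). The 2 that rose in SAFB DKO, named after their values were seen, were H19 (log2 0.47) and Snhg11 (0.82), and the 5 that fell in EZH2 KO were Rian, Mirg, Miat, Gas5 and Snhg11 (log2 -0.58 to -1.76).

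**Figure D5:**
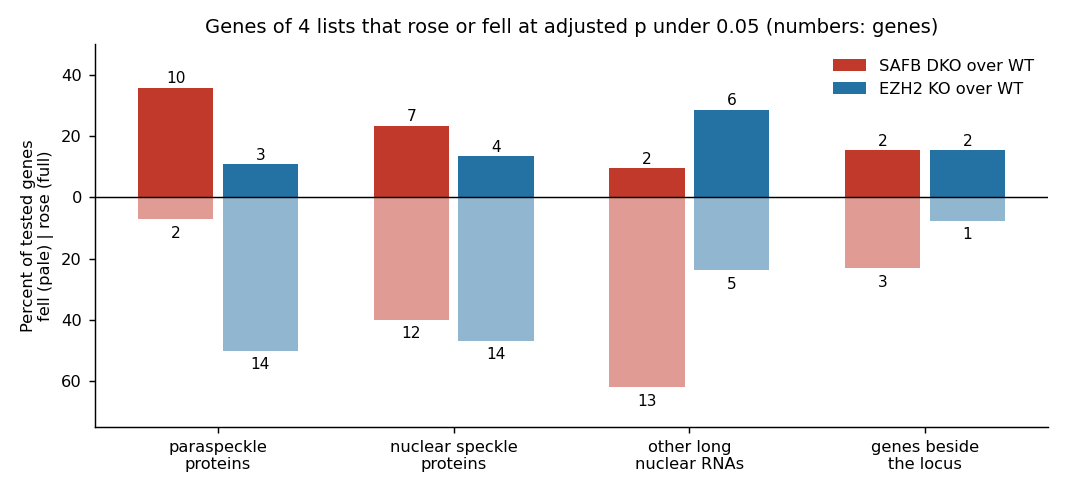
Percent of the tested genes of 4 lists that rose (full colour, above 0) or fell (pale, below 0) at an adjusted p under 0.05, in SAFB DKO over WT (red, left) and EZH2 KO over WT (blue, right); numbers are genes. In SAFB DKO 13 of 21 long nuclear RNAs fell, beside 34.7% of all tested genes. Of 28 paraspeckle protein genes 10 rose, beside 15.5% of all, and this number depended on the scaling.

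In SAFB DKO against EZH2 KO, which shares no WT library, 28.8% of all genes rose and 41.3% fell. Malat1 changed by -4.34 (SE 0.24, adjusted p = 1.37e-08) and Neat1 by -2.44 (SE 0.27, adjusted p = 3.3e-06). Of the paraspeckle list 20 rose and 3 fell, of the speckle list 14 rose and 9 fell, and of the long nuclear RNAs 4 rose and 11 fell.

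The genes whose profile was most like that of each RNA were found by the distance between centred log2 CPM over the 7 libraries, among 10660 genes with a mean of at least 100 counts. For Malat1 these were Gm13885, Gm45817, Hdac8, Slc9a7 and 6030442K20Rik, at distances of 0.35 to 0.56 against a median of 4.61 over all genes. Hdac8, for a histone deacetylase, averaged 9.86 ± 0.59 CPM in SAFB DKO, 184 ± 39.1 in EZH2 KO and 90.4 ± 2.81 in WT. For Neat1 they were Cyba, Fabp3, Zdhhc1, Pomgnt2 and Dand5, at distances of 0.34 to 0.48 against a median of 2.62. Fabp3, for a fatty acid binding protein, averaged 39.6 ± 7.53 CPM in SAFB DKO, 212 ± 5.76 in EZH2 KO and 76.1 ± 20.3 in WT. All libraries share these profiles' normalisation, so the likeness is a description.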

How the data were processed

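The authors deposited raw counts, 1 whole number for each feature and each of the 7 libraries. Per the file headers these were made by featureCounts 2.0.3, set to reverse-stranded reads, over mm10 intervals whose names say they were called on pooled WT libraries; the aligner and the peak caller are not given in the sources used here. Pooled columns and 3 control-antibody columns that belong to none of the 7 samples were not used. Features were matched to GENCODE M21 genes by strand, and a gene's value is the sum over features of that gene alone. Libraries were scaled with TMM factors taken from the tested features that the authors' filtered list does not hold.

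The main test was the quasi-likelihood F-test of edgeR 4.0.16 under R 4.3.3, after filterByExpr, with 1 fit over all 3 groups and Benjamini-Hochberg adjustment over all 193862 features or 16773 genes; an adjusted p under 0.05 counts as a change ("rose", "fell"). Fold changes are log2 with SE, and levels are CPM with SD (n = 2, 2 and 3). Single values were compared by two-sided exact permutation tests over libraries, which reach 0.1 at best for 2 against 3 and 0.333 for 2 against 2. Comparisons with WT share the WT libraries. Both SAFB DKO labels carry 1 replicate number, so clones 13 and 4 were numbered in label order. The edgeR test was tried on simulated counts with TMM factors from all rows. The scaling and the filter of the main fit were not tested in that way.

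The members and the gene lists were chosen with earlier results of these data known. Named list genes are the 2 with the highest mean level and the 2 with the largest called change in SAFB DKO. The values of 1 gene along the locus are not reported here. The sequences came from GENCODE transcripts, and the background for the motif, features of at least 200 bases or at least 1000 bases inside 1 exon, was chosen after seeing the data. Alternatives were other scalings, DESeq2 1.42.0, other filters, fits of only the groups compared, a replicate block and leaving out each library.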

Additional observations from a re-analysis of the deposited data

How the results depend on the processing

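The falls of Malat1 s1 and Neat1 s1 in SAFB DKO, and their rises in EZH2 KO, kept their call in every alternative run on the features. So did the rise of Neat1 s8 in EZH2 KO wherever it was tested. Neat1 s8 was too low for the filter of a mean of at least 50 counts. Scaling moved the median of all tested features by up to 0.265 in SAFB DKO (DESeq2 size factors) and by -0.268 in EZH2 KO (column totals), and the members moved with it. Of all called features 88.6% fell in SAFB DKO, against 73.0% with DESeq2 size factors; in EZH2 KO 51.7% fell, against 71.1% with column totals. Among genes these shares were 69.2% against 51.4%, and 47.2% against 63.5%. Leaving out EZH2 KO replicate 2 (clone 19) gave 36445 falling features in EZH2 KO in place of 15512, and a mean of at least 50 counts left 14260 falling in SAFB DKO in place of 33849. The log2 change of Malat1 in EZH2 KO ran from 0.29 to 1.13 over left-out libraries, with the lowest value not called.

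Without the feature with the most WT counts, Malat1 turned direction in SAFB DKO, with 0.41 from WT and 0.43 from EZH2 KO. Its change in EZH2 KO (-0.021) and that of Neat1 in SAFB DKO (0.015) were no longer called. Neat1 kept its rise in EZH2 KO. The difference in the log2 ratio of Malat1 to Neat1 then became 0.40 for SAFB DKO against WT and 1.54 against EZH2 KO. Features that were never called changed sign: Neat1 s3 in SAFB DKO gave 0.078 with TMM from all features, 0.21 with column totals, 0.24 with DESeq2 size factors, 0.25 in DESeq2 and 0.75 with the replicate block, and Neat1 s6 in SAFB DKO against EZH2 KO gave 0.029 with column totals. Over left-out libraries, Neat1 s3 ran from -0.58 to 0.36 in SAFB DKO, from -2.81 to 0.66 in EZH2 KO and from -0.67 to 2.79 between the knockouts. Neat1 s7 and s8 in SAFB DKO ran from -0.15 to 0.34 and from -0.17 to 0.51, Malat1 s2 in EZH2 KO from -0.091 to 0.039, and the difference in the s8 share in SAFB DKO from -1.99 to 9.80 percentage points. The cause was not tested.

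In SAFB DKO, with column totals, 22 paraspeckle genes rose and 1 fell, 13 speckle genes rose and 5 locus genes rose; with DESeq2 size factors these were 21, 1, 13 and 6, with 7 speckle genes falling, and TMM from all features gave 4 rising locus genes. In EZH2 KO, column totals gave 2 rising speckle genes, 10 falling long nuclear RNAs and 3 falling locus genes, the last also with TMM from all features. The counts over all tested genes, given beside the lists above, shifted with the scaling too. The labels do not say whether their numbers pair the samples. Deviations of EZH2 KO and WT libraries of the same number from their group means correlated at 0.027 and 0.001. With 2 EZH2 KO libraries these deviations mirror each other, so the correlations cannot settle a pairing. With the replicate number as a block, the change of Malat1 s2 in SAFB DKO was 0.34 and not called (adjusted p = 0.304), 22523 features were called in SAFB DKO in place of 38205 and 13944 in EZH2 KO in place of 29987, and no other called change of the members from WT was lost. Depth limits the downstream Neat1 features, with 99 to 161 counts per library in all.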
